A study of Mus musculus with 4 samples.

Results

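The microRNAs described here come from the hairpins grouped as antisense to Rtl1 in the imprinted Dlk1-Dio3 domain of mouse chromosome 12. They were chosen by name alone: every listed mature microRNA called miR-127, miR-136, miR-337, miR-431, miR-433, miR-434 or miR-665, with any arm suffix or star. This rule matched 13 of the 508 mature microRNAs listed in the series, from 7 hairpins. Of these hairpins 5 lie opposite the GENCODE Rtl1 transcript, and those of miR-337 and miR-665 lie past its end. Both arms were listed for 6 hairpins and 1 arm for miR-665. All 13 passed the floor on low counts (a mean equal to 20 counts in the shallowest library), as did 372 of the 508. The small RNA libraries were made from mouse embryonic fibroblasts (MEFs), primary connective tissue cells grown from embryos, with 1 library for each of 4 groups. The groups were shLuc.1309;ROSA-rtTA with doxycycline (+dox), shLuc.1309;ROSA-rtTA without it (-dox), shLuc.1309 with dox and shLuc.1309 without it. All 4 carried shLuc.1309, a short hairpin RNA (shRNA) against luciferase, which mice do not encode. rtTA, the reverse tetracycline transactivator, turns on tetracycline-responsive promoters when dox is present, and ROSA refers to Rosa26, a locus active in most mouse tissues. No source used here gives the dose and duration of dox or the number of embryos behind a culture.

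Imprinted genes are read from 1 parental copy. In the Dlk1-Dio3 domain the maternal copy is transcribed into long noncoding RNAs that are processed into many microRNAs and small nucleolar RNAs, while the paternal copy expresses protein-coding genes, Rtl1 among them. Rtl1 derives from a retrotransposon and is needed for the fetal capillaries of the mouse placenta. A microRNA from a hairpin opposite the Rtl1 transcript pairs with that transcript along its whole length, and in mice such microRNAs direct its cleavage. A microRNA is cut from a hairpin precursor as a duplex of 2 arms, 1 of which is usually kept in the silencing complex. A star marks the arm first listed as the passenger strand.

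The mature sequences are shown as the count tables list them, because they give the arm and the start under which each count is listed. Capitals mark the seed, bases 2 to 8 from the 5′ end, by which a microRNA finds most targets.
miR-337-5p: gAACGGCGtcatgcaggagtt
miR-337-3p: tTCAGCTCctatatgatgcct
miR-665: aCCAGGAGgctgaggtccct
miR-431: tGTCTTGCaggccgtcatgca
miR-431*: cAGGTCGTcttgcagggcttct
miR-433: aTCATGATgggctcctcggtgt
miR-433*: tACGGTGAgcctgtcattattc
miR-127: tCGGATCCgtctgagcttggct
miR-127*: cTGAAGCTcagagggctctgat
miR-434-3p: tTTGAACCatcactcgactcct
miR-434-5p: gCTCGACTcatggtttgaacca
miR-136*: aTCATCGTctcaaatgagtctt
miR-136: aCTCCATTtgttttgatgatgg
No seed was shared: the 13 microRNAs had 13 distinct seeds, and 0 other listed microRNAs carried one of them. None of the 13 had another listed microRNA within 2 mismatches. Sequences outside the listed microRNAs were not compared, so an exchange of counts with an unlisted copy was not tested. The arms of a hairpin could still share a run of bases. The miR-431 arms both hold GTCTTGCAGG and the miR-434 arms both hold TTTGAACCA, whereas the longest run common to both arms was 4 or 5 bases in the other hairpins.

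Of the 13 sequences, 11 equalled the RefSeq mature sequence of the same arm (GRCm38.p6). The 2 exceptions are the miR-337 arms, shown here in the RefSeq form because the start decides the seed.
RefSeq miR-337-5p: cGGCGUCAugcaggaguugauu
RefSeq miR-337-3p: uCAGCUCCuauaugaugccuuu
The listed miR-337-5p starts 3 bases and the listed miR-337-3p 1 base upstream of the RefSeq start. These names are therefore listed with a seed that differs from the RefSeq seed. Whether reads with other starts were counted under them is not given in the sources used here.

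All 7 hairpins lie on the plus strand within 9600 bases of chromosome 12 (GRCm38.p6), and Rtl1 is on the minus strand. In the order of Rtl1 transcription the hairpins are miR-136 (chr12:109595327-109595388), miR-434 (chr12:109594506-109594599), miR-127 (chr12:109592846-109592915), miR-433 (chr12:109591715-109591838), miR-431 (chr12:109590447-109590537), miR-665 (chr12:109586314-109586407) and miR-337 (chr12:109585789-109585885). The first 5 lie wholly opposite the coding sequence of the GENCODE Rtl1 transcript (Rtl1-201, coding sequence chr12:109590172-109595403). miR-136 ends 15 bases from the first base of the start codon. miR-665 and miR-337 do not overlap the GENCODE gene: they begin 2786 and 3308 bases past its end, and only the longer RefSeq gene span (chr12:109564900-109604418) holds them. Accordingly, 10 of the 13 microRNAs, all from those 5 hairpins, had an exact complement in Rtl1-201, while the miR-337 arms and miR-665 had none.

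Examples of these fully paired Rtl1 sites are given 5′ to 3′ on the Rtl1 strand, with the stretch that pairs with the seed in capitals, for the most abundant of the 13 and for 2 that were lowest in the induced library.
Rtl1 site of miR-127: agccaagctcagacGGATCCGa
Rtl1 site of miR-434-3p: aggagtcgagtgatGGTTCAAa
Rtl1 site of miR-136*: aagactcatttgagACGATGAt
They lie at bases 2642 to 2663, 965 to 986 and 164 to 185 of the transcript. The precursors of miR-337 and miR-136, which hold the members at least 2-fold apart between libraries compared below, are given with that of miR-434. The listed arms are in capitals (RefSeq, GRCm38.p6).
miR-337 hairpin: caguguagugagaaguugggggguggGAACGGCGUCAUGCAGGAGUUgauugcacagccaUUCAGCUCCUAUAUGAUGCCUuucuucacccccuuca
miR-434 hairpin: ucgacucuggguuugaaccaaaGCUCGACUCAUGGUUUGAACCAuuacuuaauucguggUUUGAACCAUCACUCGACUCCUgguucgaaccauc
miR-136 hairpin: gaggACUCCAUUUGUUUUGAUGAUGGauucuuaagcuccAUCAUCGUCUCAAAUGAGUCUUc

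**Figure D1:**
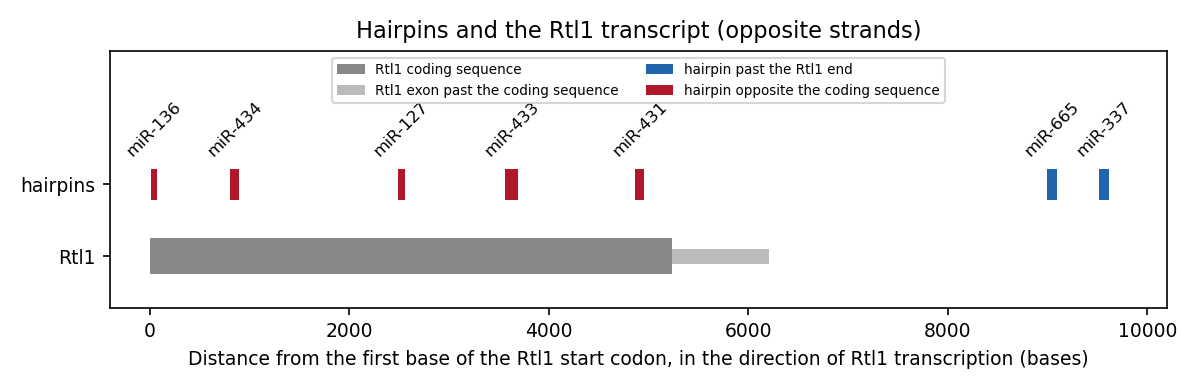
Positions of the 7 hairpins (upper row, boxes to scale) and of the coding exon of GENCODE Rtl1 (lower row) as distance in bases from the first base of the Rtl1 start codon, along Rtl1 transcription. The 5 red hairpins lie opposite the coding sequence, and the 2 blue ones (miR-665 and miR-337) lie past the end of the transcript.

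The libraries held between 6383594 and 8780954 counts. The shRNA row took 2.38% of them in rtTA cells with dox and 0.0725% to 0.0786% in the other 3 libraries, so the induced library is the one its label names. Levels are given as CPM, the counts in every 1000000 endogenous microRNA counts, without the shRNA row. Of 11 fibroblast or mesenchymal markers 10 were listed, and they summed to 525881 to 546919 CPM. The exception, miR-199a-3p, was not listed under that name. Markers of other cell types were low beside the fibroblast sum. The 9 of 9 neural markers listed summed to 949, 897, 819 and 739 CPM (rtTA +dox, rtTA -dox, no rtTA +dox, no rtTA -dox). The 4 of 4 muscle markers listed summed to 592, 381.7, 246 and 262 CPM. The neural sum was not low beside a member such as miR-434-3p, with a mean of 608 CPM. The 7 blood markers, all listed, summed to 82.8 to 100.5 CPM, the 6 epithelial ones, all listed, to 4.86 to 17.4 CPM, and the 5 listed of 9 pluripotent markers to at most 1.20 CPM. In bulk RNA, fewer cells of a type and less RNA per cell cannot be told apart. The part of other cells in the results was not tested.

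The 13 microRNAs together took 12319 CPM in rtTA cells with dox (95% Poisson interval 12240 to 12399), 10040 CPM in rtTA cells without dox, 12338 CPM in cells without rtTA but with dox, and 11291 CPM in cells with neither. That is between 1.004% and 1.23% of all endogenous microRNA counts. They made up 17.2% to 18.1% of the counts of the whole Dlk1-Dio3 list (72 microRNAs), a share that varied less than the levels did. The 59 other microRNAs of that list summed to 55579, 48191, 59333 and 52278 CPM in the same order of libraries. Its most abundant ones by mean, miR-379 (7778 CPM), miR-541 (7072 CPM) and miR-376a (6546 CPM), each lay above every one of the 13.

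By mean CPM over the 4 libraries the order was mmu-miR-127 (2426), mmu-miR-433 (1928), mmu-miR-136* (1606), mmu-miR-127* (1226), mmu-miR-337-5p (1187), mmu-miR-431 (1084), mmu-miR-665 (722), mmu-miR-434-3p (608), mmu-miR-434-5p (174), mmu-miR-431* (172), mmu-miR-337-3p (132.9), mmu-miR-136 (122) and mmu-miR-433* (110). (mmu marks mouse names). All are 20 to 22 bases long. Most neighbours in it overlapped in their ranges over the libraries. The 2 gaps were between miR-431 (lowest 1003 CPM) and miR-665 (highest 754 CPM), and between miR-434-3p (lowest 416 CPM) and miR-434-5p (highest 185 CPM). The least variable was miR-665, whose highest library was 1.09-fold above its lowest, and the most variable was miR-337-3p, at 3.73-fold.

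**Figure D2:**
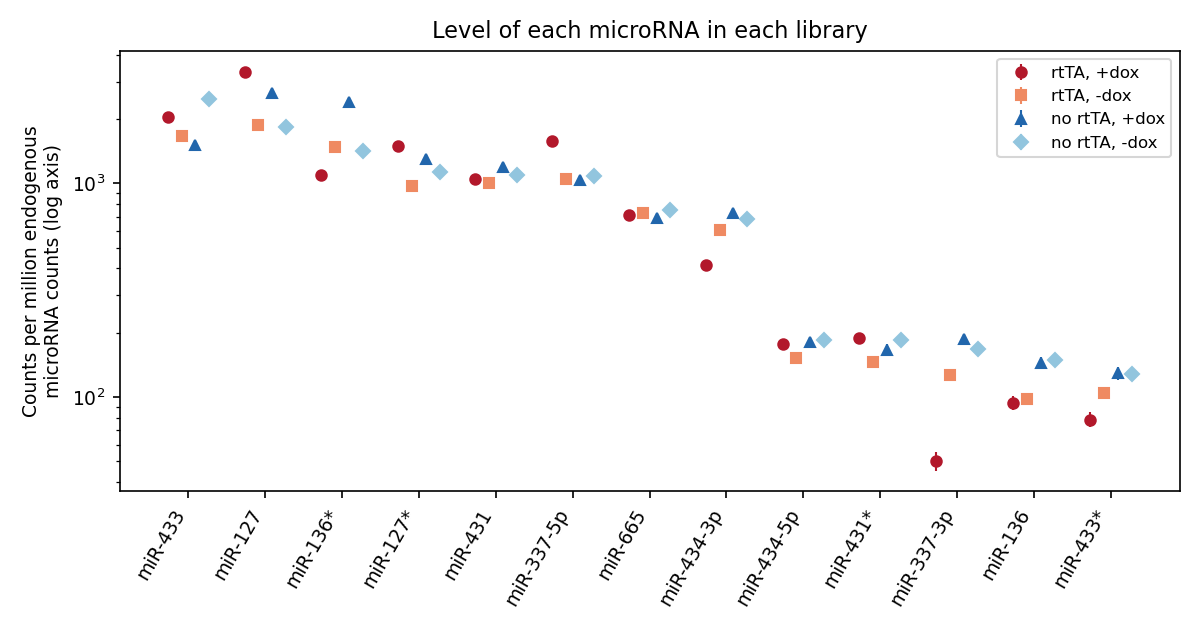
Level of each of the 13 microRNAs in the 4 libraries, in CPM on a log axis, 1 symbol per library with the 95% Poisson interval (often within the symbol). miR-337-3p stands lowest in rtTA cells with dox at 50.1 CPM, and miR-136* stands highest in cells without rtTA but with dox at 2418 CPM.

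miR-127, from the hairpin known in mice for its role in the placenta, had 3328 CPM in rtTA cells with dox, 1879 CPM in rtTA cells without dox, 2657 CPM in cells without rtTA but with dox, and 1839 CPM in cells with neither. Both dox libraries were above both libraries without dox. The opposite arm, miR-127*, followed the same order between dox and no dox, with 1501, 978, 1295 and 1128 CPM. It held 31.1% to 38.0% of its hairpin's counts.

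The miR-136 hairpin, closest to the Rtl1 start codon, gave most of its reads from the arm listed as star. miR-136* had 1098 CPM in rtTA cells with dox, 1483 CPM in rtTA cells without dox, 2418 CPM in cells without rtTA but with dox, and 1424 CPM in cells with neither. The libraries without dox lay within 1.04-fold of each other, and the dox libraries lay on either side of them. The arm named miR-136 had 93.9, 98.1, 144.95 and 149.6 CPM in the same order of libraries. It was thus lower in both rtTA libraries than in both libraries without rtTA, a split by genotype that the star arm did not show.

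miR-434-3p had 416 CPM in rtTA cells with dox, 608 CPM in rtTA cells without dox, 731 CPM in cells without rtTA but with dox, and 680 CPM in cells with neither. The induced library was the lowest. Its partner arm miR-434-5p had 176, 152, 181 and 185 CPM, with rtTA cells without dox the lowest.

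miR-433 had 2043 CPM in rtTA cells with dox, 1677 CPM in rtTA cells without dox, 1513 CPM in cells without rtTA but with dox, and 2478 CPM in cells with neither. Here the library with neither rtTA nor dox was the highest and the one with dox alone the lowest. miR-433* had 78.3, 104.4, 129.4 and 127.9 CPM, lower in both rtTA libraries.

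miR-431, which in mouse muscle is known to act on Pax7, had 1054 CPM in rtTA cells with dox, 1003 CPM in rtTA cells without dox, 1190 CPM in cells without rtTA but with dox, and 1091 CPM in cells with neither. The libraries were within 1.19-fold of each other. miR-431* had 190, 147, 167 and 184 CPM, with rtTA cells without dox the lowest.

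Of the hairpins past the Rtl1 end, only miR-337 had both arms listed. miR-337-5p had 1577 CPM in rtTA cells with dox, 1054 CPM in rtTA cells without dox, 1034 CPM in cells without rtTA but with dox, and 1083 CPM in cells with neither. The induced library was the highest for this arm, and the other 3 were nearly level. miR-337-3p had 50.1, 126.7, 187 and 168 CPM, so the same library was the lowest for the other arm of the same precursor. miR-665 had 715, 730, 691 and 754 CPM.

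The induction of the shRNA (rtTA cells with dox over rtTA cells without dox) asks whether these microRNAs differ when a strongly expressed hairpin passes through the same pathway. miR-337-3p fell to 50.1 CPM with dox, against 126.7 CPM without, a 2.53-fold difference (log2 ratio -1.34, 95% counting interval -1.51 to -1.17). It was the only one of the 13 at least 2-fold lower with an interval off equality, and 0 were higher. Over all 372 microRNAs tested, 8.6% were lower and 1.34% higher by this rule, so 1 of 13 is near the background. At log2 ratios short of 2-fold, miR-127 was at 0.82, miR-127* at 0.62 and miR-337-5p at 0.58, while miR-434-3p was at -0.55, miR-136* at -0.43 and miR-433* at -0.41. The median over the 13 was 0.07, with 7 above 0 and 6 below (8 and 5 with TMM scaling, which puts miR-665 above 0), against -0.14 over the 56 other Dlk1-Dio3 microRNAs past the floor and -0.06 over all 372. With 1 library per group no difference here has a replicate check: intervals cover counting error only and compare libraries, not conditions. Each library enters 2 of the 4 comparisons.

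Dox alone (cells without rtTA, with dox over without) leaves the shRNA uninduced. No member was 2-fold apart: 0 were higher and 0 lower, against 0.806% of all 372 in each direction. The widest ratios were those of miR-136* (0.76, interval 0.73 to 0.80), miR-433 (-0.71, -0.75 to -0.67) and miR-127 (0.53, 0.50 to 0.56). Among all 372 microRNAs, 3.49% had a lower ratio than miR-433 and 95.7% a lower one than miR-136*. The other 10 lay between -0.14 (miR-431*) and 0.20 (miR-127*). The median was 0.02, against 0.07 for the 56 others of the domain and -0.04 over all 372, and it was below 0 with TMM (-0.03) and DESeq2 (-0.0087) scaling.

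The dox-treated libraries with and without rtTA differed most. miR-337-3p fell to 50.1 CPM with rtTA, against 187 CPM without (3.73-fold, log2 ratio -1.90, -2.07 to -1.73), and miR-136* fell to 1098 CPM with rtTA, against 2418 CPM without (2.20-fold, -1.14, -1.18 to -1.10). These 2 of 13 were lower and 0 higher, near the background: 14.2% of all 372 were lower and 2.42% higher. Short of 2-fold, miR-434-3p was at -0.81, miR-433* at -0.72 and miR-136 at -0.63, and on the other side miR-337-5p was at 0.61, miR-433 at 0.43 and miR-127 at 0.33. The median over the 13 was -0.04, which is 0.06 by TMM and 0.07 by DESeq2 scaling, since these raise every ratio of this comparison by 0.10. It was -0.43 over the 56 other Dlk1-Dio3 microRNAs, of which 13 were lower and 2 higher, and -0.07 over all 372. This comparison shares the induced library with the first.

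The libraries without dox, with over without rtTA, were close. No member was 2-fold apart, with 0 higher and 0 lower, against 0.538% and 1.34% of all 372. However, 11 of the 13 ratios were below 0 (9 with DESeq2 scaling), as were 49 of the 56 other Dlk1-Dio3 microRNAs, against 58.3% over all 372. The median was -0.21, against -0.23 for the 56 others and -0.07 over all. The lowest ratios were those of miR-136 (-0.61, -0.74 to -0.47), miR-433 (-0.56, -0.60 to -0.53) and miR-337-3p (-0.41, -0.53 to -0.28). miR-136* (0.06, 0.02 to 0.10) and miR-127 (0.03, -0.0029 to 0.07) were above 0.

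**Figure D3:**
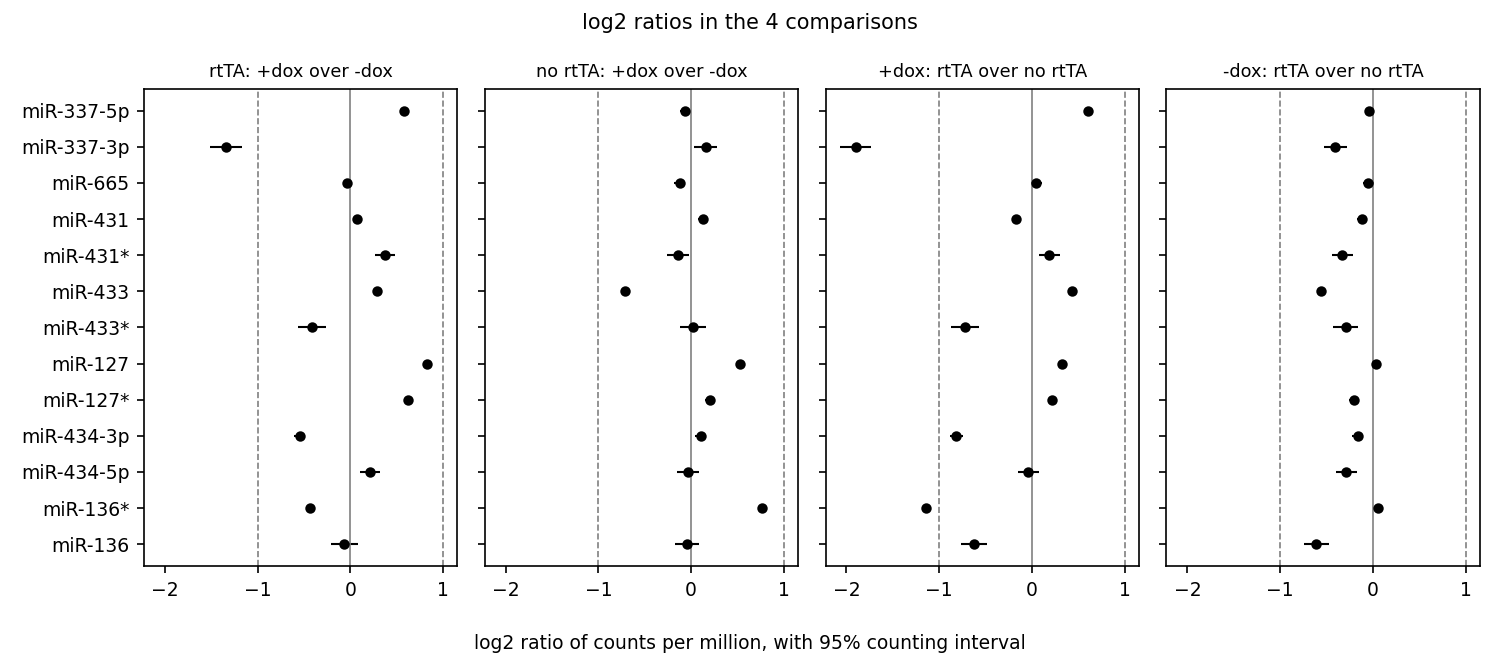
log2 ratio of CPM for the 13 microRNAs (rows, arms of a hairpin next to each other) in the 4 comparisons, with 95% counting intervals and dashed lines at 2-fold. Only miR-337-3p (-1.34 and -1.90) and miR-136* (-1.14 with dox) pass a dashed line.

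For 6 of the 13 microRNAs the dox ratio in rtTA cells lay on the other side of 0 from that in cells without rtTA, both with intervals off 0, against 33.6% of all 372. The 2 ratios share no library. An interval off 0 is reached more readily at high counts. Every member had a mean of 110 CPM or more, while the 372 reach down to the floor of 3.14 CPM. The 2 shares are therefore not like for like. miR-433 was at 0.29 with rtTA and -0.71 without, miR-136* at -0.43 and 0.76, miR-337-3p at -1.34 and 0.16, and miR-434-3p at -0.55 and 0.11. miR-127 was above 0 in both, at 0.82 with rtTA and 0.53 without, and so was miR-127*, at 0.62 and 0.20. The difference of the 2 ratios passed 2-fold for miR-337-3p (-1.49, -1.70 to -1.29) and miR-136* (-1.20, -1.25 to -1.14), both lower with rtTA, where 12.4% of all 372 were lower and 5.65% higher.

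The induced library was the highest of the 4 for miR-337-5p, miR-431*, miR-127 and miR-127*, and the lowest for miR-337-3p, miR-433*, miR-434-3p, miR-136* and miR-136. Over all 372 it was the highest for 28.0% and the lowest for 42.2%. The miR-431* and miR-136 values in it were within counting error of the nearest other library. The 4 highest have 31.8% to 38.1% G in their mature sequence and the 5 lowest 9.09% to 22.7% G, with no overlap between them. For the 56 other microRNAs of the domain these ranges overlap, at 27.3% to 52.4% (17 highest) and 4.55% to 36.4% (30 lowest). Over all 372 they are 14.3% to 52.4% (104 highest) and 0% to 36.4% (157 lowest). Ranges of so few members are narrow by their number alone. Median G in the highest and lowest was 31.8% and 14.3% for the members. It was 40.9% and 18.2% for the 56 others, and 34.1% and 18.2% over all 372.

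The ratio of 2 microRNAs within 1 library does not depend on how that library is scaled, and the arms of 1 hairpin also come from the same precursor. The rarer arm of miR-337, the 3p arm, held 3.08% of the counts of both arms in rtTA cells with dox (95% Clopper-Pearson interval 2.78% to 3.40%), 10.7% in rtTA cells without dox, 15.3% in cells without rtTA but with dox, and 13.4% in cells with neither. In the induced library it was thus outnumbered 31.5 to 1 by the 5p arm, against 8.32 to 1 in rtTA cells without dox. The odds of the rarer arm differed by -1.92 on the log2 scale (-2.09 to -1.75) between these libraries. For miR-434 the order was turned round: the 5p arm, the rarer one, held 29.8% in rtTA cells with dox, against 20.02%, 19.9% and 21.4% in the other libraries (rtTA -dox, no rtTA +dox, no rtTA -dox). The induced library stood above the 3 others by more than counting error (log2 odds ratio 0.76, 0.63 to 0.89, against rtTA cells without dox).

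In the other 4 hairpins the induced library was the lowest or highest of the 4 for miR-433*, miR-431* and miR-127*. miR-433* held 3.69%, 5.86%, 7.87% and 4.91% of its hairpin's counts in the same order of libraries, lowest in the induced library. miR-136, the rarer arm although it carries no star, held 7.88%, 6.21%, 5.65% and 9.50%. miR-431* held 15.3%, 12.8%, 12.3% and 14.5%, and miR-127* held 31.1%, 34.2%, 32.8% and 38.0%. For miR-431* the interval of the induced library (14.6% to 16.0%) overlapped that of the library with neither rtTA nor dox (13.7% to 15.2%). The median share over the 6 hairpins was 11.6% (rtTA +dox), 11.7% (rtTA -dox), 13.8% (no rtTA +dox) and 13.9% (no rtTA -dox). Between the rtTA libraries, with over without dox, the rarer arm's odds were lower in 3 hairpins and higher in 3. The arms lay on opposite sides of 0 in 3 of 6 hairpins (miR-337, miR-433 and miR-434). With dox alone they did so in 5 of 6, for rtTA with dox in 3 and for rtTA without dox in 2. The odds ratio had an interval off 0 in 6, 6, 6 and 5 hairpins in the same order of comparisons. With dox alone it was 0.73 for miR-433* and -0.81 for miR-136. These counts were not made for hairpins outside the members.

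**Figure D4:**
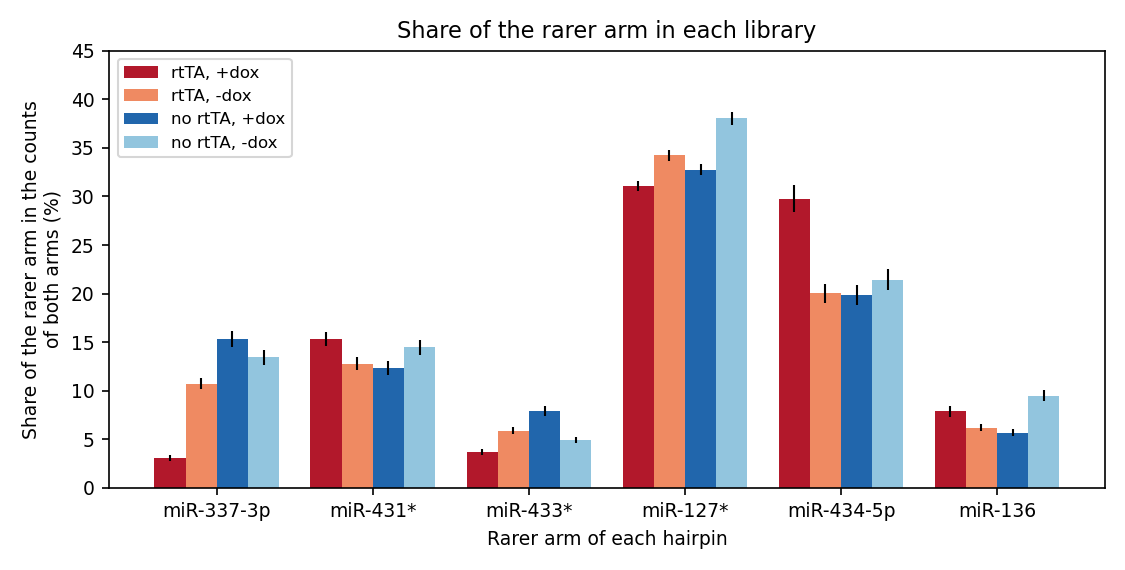
Share of the rarer arm in the counts of both arms, in percent, for the 6 hairpins with both arms listed, 1 bar per library with the 95% Clopper-Pearson interval. In the induced library miR-337-3p is at 3.08% and miR-434-5p at 29.8%.

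Counting both arms together gave another value for miR-337 and a like one for miR-136. The summed miR-337 arms had 1627 CPM in rtTA cells with dox, against 1181 CPM in rtTA cells without dox (log2 ratio 0.46), the opposite side of 0 from miR-337-3p alone. The summed miR-136 arms had 1191 CPM with rtTA and dox, against 2563 CPM with dox and no rtTA (-1.11, -1.14 to -1.07). The summed miR-127 arms had 4830, 2857, 3952 and 2967 CPM, and were the highest of the 7 hairpins in every library.

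The ratios of the 13 followed the base composition of their mature sequences in the comparisons that hold the induced library. Across the 13, which include arms of shared hairpins and come from the same 2 libraries each time, Pearson's r between the percentage of G and the log2 ratio was 0.79 for dox in rtTA cells and 0.86 for rtTA with dox. It was -0.40 for dox without rtTA and 0.10 for rtTA without dox. Over all 372 the values were 0.72, 0.69, -0.20 and -0.0038. Inside hairpins the arms also split by G, but not only in the comparisons that hold the induced library. In 5 hairpins the arms differ in G, those of miR-431 only between 28.6% and 31.8%. The arm richer in G had the higher ratio in 5 for dox in rtTA cells and in 5 for rtTA with dox. For dox without rtTA it was higher in 0, so the arm poorer in G had the higher ratio in all 5. For rtTA without dox the arm richer in G was higher in 1. Apart from miR-540, described below, the arms of other hairpins were not compared in this way. No share over the series therefore stands beside these counts. miR-337 shows the widest contrast, with 38.1% G in the 5p arm and 14.3% in the 3p arm, and miR-434 has 22.7% and 9.09%. The arms of miR-127 have the same 31.8% G, and both were above 0 with dox in rtTA cells.

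With the linear trend on G over all 372 subtracted, miR-337-3p was at -0.87 for dox in rtTA cells and at -1.34 for rtTA with dox, where miR-136* was at -0.54. miR-127 kept 0.55 and 0.59 in the dox comparisons with and without rtTA, and miR-127* 0.34 and 0.25. miR-337-5p was then at 0.03 and miR-434-3p at 0.14 for dox in rtTA cells. miR-665, nearly level in CPM, moved away from 0: it was at -0.44 after subtraction, against -0.03 before, for dox in rtTA cells, and at -0.45, against 0.05, for rtTA with dox. The part of base composition in these ratios was not otherwise tested.

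**Figure D5:**
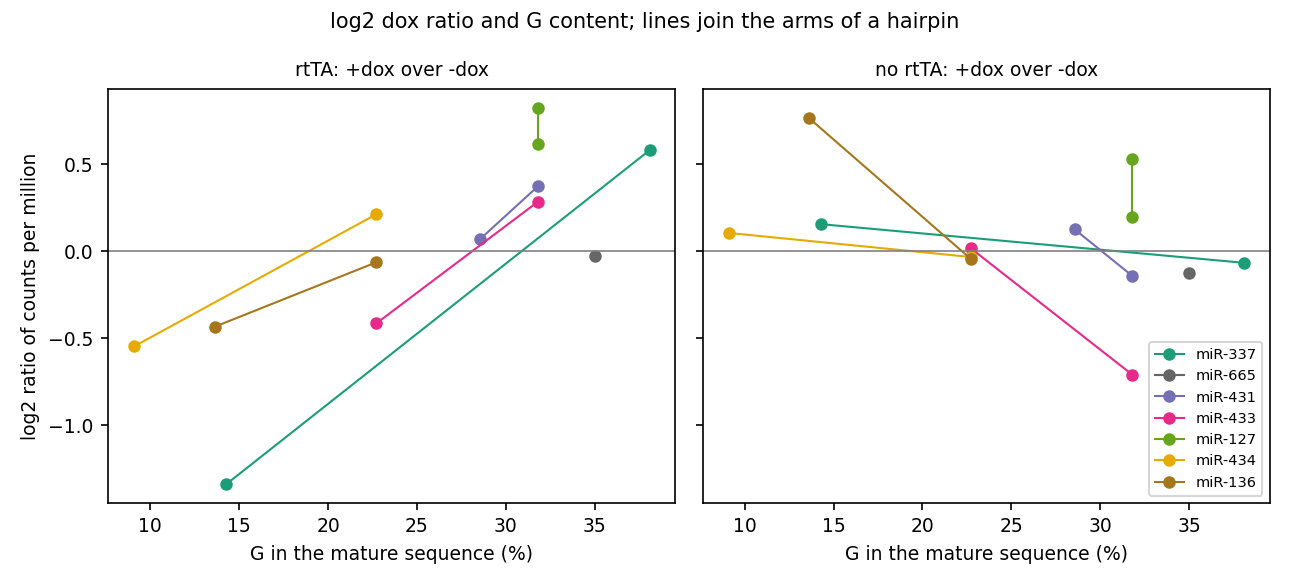
log2 dox ratio (vertical axis) against the percentage of G in the mature sequence (horizontal axis) for the 13 microRNAs, with rtTA on the left and without on the right, and lines joining the arms of a hairpin. On the left all 5 sloping lines rise with G and on the right all 5 fall.

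The 13 did not share 1 profile over the 4 libraries. Centred on its own mean on the log2 scale, the profile of miR-434-5p (distance 0.09) and of miR-431 (0.10) lay nearest to the median profile of the 13, and that of miR-337-3p (1.42) farthest. The median distance of all other microRNAs from that profile was 0.55. That profile was made from the 13 themselves, so their own distances are not comparable with this value. The 3 other microRNAs nearest to the median profile were miR-322* (0.11), miR-100 (0.11) and miR-151-5p (0.12), none of them in the Dlk1-Dio3 list.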

How the data were processed

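The authors deposited raw read counts per mature microRNA, with 1 table for each library and a row for the luciferase shRNA. Per the file headers a table holds names, sequences and counts only. Aligner, mismatches allowed and genome build: not given in the sources used here. Where a table lacks a microRNA its count was set to 0 (up to 0.470 CPM, 3 counts). CPM used the endogenous total of 6378964 to 8774056 counts. Log2 ratios carry exact conditional binomial 95% intervals, and the call of higher or lower needed 2-fold or more and an interval off equality. The floor was 3.14 CPM. Differences of 2 ratios used 0.5 added counts and a delta-method interval, and so did arm odds, without the added counts. The trend on G was subtracted around the mean G of all 372. Reads amplified by PCR are not independent molecules, so all intervals cover counting error only. No p-values were computed, as each group has 1 library. Ratios and their intervals were tested on simulated counts with counting error alone, so that test says nothing on variation between libraries. Intervals of arm odds and of differences of ratios were not tested in this way. The members, the marker lists, the list of other Dlk1-Dio3 microRNAs and the tests were chosen with earlier results of these data known. All members are named, with the 3 most abundant others of the domain and the 3 nearest profiles. 10 member names were listed beforehand, and the rule matched 3 more (miR-127*, miR-431* and miR-433*). Positions come from exact matches to RefSeq hairpins. Tools were Python 3.11.15, scipy 1.17.1, R 4.3.3, edgeR 4.0.16 (TMM factors) and DESeq2 1.42.0 (size factors).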

Additional observations from a re-analysis of the deposited data

Results flagged for a closer look

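For 6 of the 13 microRNAs the dox ratio pointed one way in rtTA cells and the other way in cells without rtTA, each with a counting interval off 0. That is 46.2% of the members, against 42.9% of the other Dlk1-Dio3 microRNAs (24 of 56) and 33.6% of all 372. The rule is met more readily at high counts, and the 372 include microRNAs rarer than any member, so these shares are not like for like. The difference of the log2 ratios (with rtTA minus without) was -1.49 for miR-337-3p, -1.20 for miR-136*, -0.65 for miR-434-3p, 0.52 for miR-431*, 0.65 for miR-337-5p and 0.996 for miR-433. With 1 library per group these differences were not tested against replicates. With the trends on G subtracted from both ratios they were -0.93, -0.60, 0.18, 0.18, -0.0088 and 0.66 in the same order.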

How the results depend on the processing

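Alternatives were TMM and DESeq2 factors, and a total with the shRNA or without the 10 most abundant microRNAs. Floors of 5 counts or none, and 1 count added to each arm, were also used. All of these kept every count of members at least 2-fold apart. They moved no median ratio or median arm share past the medians of the lower and upper interval ends. Those medians of ends are not a counting interval of the median itself. The medians for dox without rtTA and for rtTA with dox changed sign with TMM and DESeq2 scaling. All 13 members pass each floor. With the trend on G subtracted, 0 members were lower for dox in rtTA cells and 1 (miR-337-3p) for rtTA with dox, against 1 and 2 before. With arms summed per hairpin these counts were 0 and 1 (miR-136), and the median for rtTA without dox was -0.083, against -0.21. In both cases the cause was not tested, beyond the fact that summing leaves 7 values, in which the abundant arm prevails. The median over members of the dox ratio with rtTA minus that without was 0.09, and -0.0088 with the trend subtracted. Of the values of single members under an alternative, 308 stayed within and 69 moved past their counting interval, and 0 that were at least 2-fold apart changed sign. No replicate could be left out, since each group has 1 library. No paired analysis was possible because each group has 1 library and the labels give no replicate numbers. Rare arms such as miR-337-3p in the induced library have the widest counting intervals.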

Other observations

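RefSeq places 5 other hairpins within the span of the 7, and 1 of them, miR-540 between miR-337 and miR-665, gave microRNAs past the floor. miR-540-3p (40.0% G) had 334 CPM in rtTA cells with dox, 242 CPM in rtTA cells without dox, 226 CPM in cells without rtTA but with dox, and 259 CPM in cells with neither. Its induced library was the highest, with log2 dox ratios of 0.46 with rtTA and -0.20 without. miR-540-5p (21.7% G) had 50.7, 48.1, 85.5 and 61.8 CPM in the same order of libraries, with dox ratios of 0.08 and 0.47. As in the members' hairpins whose arms differ in G, the arm richer in G had the higher ratio with dox in rtTA cells and the lower one with dox alone. This pair of values has no replicate check.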
